A study of Mus musculus with 16 samples.

Results

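The genes described here encode the proteins of the mitochondrial ribosome and were taken as every gene symbol beginning with Mrpl or Mrps followed by a number. There were 77 of them, 48 Mrpl genes for the large subunit and 29 Mrps genes for the small subunit, among 18000 genes tabulated for brown fat and 17539 for quadriceps, and all 77 stood in both tables. The mice were C57BL/6 males of 10 weeks, kept at room temperature. They were either homozygous for uORF-TAA, an allele of Ppargc1a, or wild-type littermates. Messenger RNA was sequenced from 4 uORF-TAA and 4 wild-type libraries of brown adipose tissue, and from 4 uORF-TAA and 4 wild-type libraries of quadriceps muscle, 16 in all. The name of the allele refers to an upstream open reading frame, a short frame ahead of the main coding sequence, and to the stop codon TAA; the labels say nothing more of how it was made.

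Mitochondria keep their own ribosomes, which translate the few messages of mitochondrial DNA into core subunits of the respiratory chain and of ATP synthase. The small subunit decodes the message and the large subunit forms the peptide bonds, and all of their proteins are made from nuclear genes and imported. Many descend from bacterial ribosomal proteins and others were gained by mitochondria; the roles named for single proteins are those known from mammalian or bacterial ribosomes. Ppargc1a encodes PGC-1alpha, a transcriptional coactivator that works with nuclear respiratory factors and with the estrogen-related receptor ERRalpha on nuclear genes for mitochondrial proteins, and brown adipocytes are rich in mitochondria that make heat.

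Each tissue is represented by 1 table of the authors' own comparison between genotypes, with no value per library, so levels below are the mean normalized count over all 8 libraries of a tissue and the error of a fold change is its deposited standard error. Fold changes are log2, uORF-TAA over wild type, taking the genotype that a table's name puts first as the numerator. This reading is an assumption, and where it is wrong the directions of that tissue turn over while its counts of genes past a threshold stand. The mean normalized counts summed to 12.82 M (M, mega) in brown fat and 21.04 M in quadriceps, which stands in for the average depth of a library. Individual genes of the mitochondrial ribosome had means from 51.6 to 2366 (median 761) in brown fat and from 49.8 to 2878 (median 412) in quadriceps, so none was at the limit of detection. The labelled tissues matched their markers, with Ucp1 at a mean count of 47561 in brown fat and 6.70 in quadriceps in the authors' deposited tables. The 8 myofibre markers summed to 8482 CPM in brown fat, so muscle RNA was present there, and to 176597 CPM in quadriceps; CPM is a mean normalized count scaled to a table total of 1000000. In the authors' deposited tables Ppargc1a mRNA itself did not pass the test, at 0.0016 ± 0.11 (SE, p = 0.988) in brown fat and 0.06 ± 0.13 (SE, p = 0.646) in quadriceps by DESeq2's Wald test. A change in an upstream frame need not alter the amount of mRNA, so this value does not check the genotype labels.

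Promoters of these genes are shown because PGC-1alpha acts through factors that bind such DNA. RefSeq (GRCm38.p6) promoters were found for 68 of the 77 genes, 74 windows in all, and the 250 bases before each start were searched on both strands for short forms of binding motifs. The 6 printed here belong to the stalk proteins Mrpl10 and Mrpl12 and to genes at the ends of the ranges of level. Mrpl34 had the highest ratio of brown fat over quadriceps, and Mrpl32 and Mrps22 some of the lowest. Mrps21 was the most abundant small subunit message per length. Windows without a match were not printed, though other genes of these kinds had 0 matches. Among them were the stalk protein Mrpl11 and, from the lowest ratios, Mrpl1, Mrpl42 and Mrpl50. All 6 printed windows hold a match. Each reads 5′ to 3′ along the gene and ends at the base before the annotated start; capitals mark matches to the NRF1 motif GCGCANGCG (or CGCNTGCGC read from the other strand), the ETS motif CCGGAAG bound by GABP and its relatives, or the YY1 motif AAGATGG, written CCATCTT from the other strand.
Mrpl10, chr11:97041332-97041581, plus strand: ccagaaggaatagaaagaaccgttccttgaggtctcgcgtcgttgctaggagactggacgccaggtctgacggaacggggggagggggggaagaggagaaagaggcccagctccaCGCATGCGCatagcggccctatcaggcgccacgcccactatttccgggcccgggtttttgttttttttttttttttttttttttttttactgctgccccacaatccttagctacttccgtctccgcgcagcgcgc
Mrpl12, chr11:120484387-120484636, plus strand: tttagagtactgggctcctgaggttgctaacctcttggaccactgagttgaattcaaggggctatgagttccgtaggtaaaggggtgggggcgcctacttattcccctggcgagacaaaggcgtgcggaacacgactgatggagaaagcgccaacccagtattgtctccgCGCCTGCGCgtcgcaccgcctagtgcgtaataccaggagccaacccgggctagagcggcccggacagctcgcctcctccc
Mrpl34, chr8:71464676-71464925, plus strand: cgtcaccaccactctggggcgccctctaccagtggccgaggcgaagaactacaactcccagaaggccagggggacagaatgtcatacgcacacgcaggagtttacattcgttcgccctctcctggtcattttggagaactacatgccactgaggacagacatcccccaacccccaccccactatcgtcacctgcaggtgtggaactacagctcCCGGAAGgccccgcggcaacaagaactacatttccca
Mrps21, chr3:95871515-95871764, minus strand: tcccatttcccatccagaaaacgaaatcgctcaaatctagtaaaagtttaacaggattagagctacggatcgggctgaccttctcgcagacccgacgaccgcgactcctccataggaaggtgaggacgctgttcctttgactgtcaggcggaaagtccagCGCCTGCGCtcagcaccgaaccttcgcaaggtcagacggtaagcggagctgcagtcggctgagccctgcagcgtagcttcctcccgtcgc
Mrpl32, chr13:14613038-14613287, minus strand: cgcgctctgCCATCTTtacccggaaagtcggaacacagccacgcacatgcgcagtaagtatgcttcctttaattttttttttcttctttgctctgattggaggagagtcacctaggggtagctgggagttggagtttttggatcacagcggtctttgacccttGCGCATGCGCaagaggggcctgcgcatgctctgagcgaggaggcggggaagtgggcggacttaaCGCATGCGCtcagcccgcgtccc
Mrps22, chr9:98601680-98601929, minus strand: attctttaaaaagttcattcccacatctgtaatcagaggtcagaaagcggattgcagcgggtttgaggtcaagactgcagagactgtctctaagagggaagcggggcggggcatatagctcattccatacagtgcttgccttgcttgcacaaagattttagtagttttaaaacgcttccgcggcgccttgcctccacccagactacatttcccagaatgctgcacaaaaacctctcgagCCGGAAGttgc

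The window of Mrpl32, whose protein is matured by the m-AAA protease before it joins the large subunit, held 3 NRF1 matches, 2 of them overlapping in 1 palindromic run, and a YY1 match. NRF1 matches occurred in 13 of 74 windows (17.6%), 11 of 47 for the large subunit and 2 of 27 for the small subunit, against 7.08% of 21262 promoters of all genes. ETS matches occurred in 17 of 74 windows (23.0%), against 8.98% of all promoters, and YY1 matches in 6 (8.11%), against 4.13%. The ERR motif TCAAGGTCA was in 0 of 74 windows and in 0.320% of all promoters. The median GC content was 58.4% in these windows and 55.6% in all, and its part in these shares was not tested. The transcripts of the factors did not pass DESeq2's test. In the authors' deposited tables Nrf1 stood at -0.12 ± 0.11 (SE, p = 0.292) in brown fat and -0.06 ± 0.11 (SE, p = 0.594) in quadriceps, and Gabpa, the DNA-binding subunit of GABP, at 0.07 ± 0.11 (SE, p = 0.529) and 0.04 ± 0.12 (SE, p = 0.768). These factors were chosen after their values had been seen.

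The first question was whether mRNA of the mitochondrial ribosome differed between uORF-TAA and wild-type brown fat. No gene of the 77 passed DESeq2's Wald test at an adjusted p under 0.05, where 8 of all 9272 genes with an adjusted p did (0.0863%). At an unadjusted p under 0.05 the count was still 0 of 77, against 372 of 17973 genes (2.07%). An adjusted p was given for 76 of the 77, the exception being Mrpl23, a protein at the exit of the peptide tunnel, and every one rounded to 1.00. The fold changes were small but leaned one way: 38 of 48 large subunit genes (79.2%) and 23 of 29 small subunit genes (79.3%) lay above 0, against 53.6% of all genes whose mean was 50 or more. Their medians were 0.032 and 0.035, next to 0.0064 for those genes, and no single gene among them passed a test.

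Mrps28, the counterpart of the bacterial protein S1 in the small subunit, had the smallest p in brown fat, with a log2 fold change of 0.18 ± 0.10 (SE, p = 0.0901, DESeq2's Wald test, the authors' deposited table). Mrpl13, a conserved protein of the large subunit, followed at 0.15 ± 0.09 (SE, p = 0.0953 in the authors' deposited table from DESeq2). Both lay within 2 standard errors of 0. The tunnel protein Mrpl4, in the authors' deposited table, stood at 0.14 ± 0.10 (SE, p = 0.178 by DESeq2), and Mrpl14, which lies at the interface of the subunits, at 0.13 ± 0.11 (SE, p = 0.225). Among the small subunit genes, Mrps10 (0.10 ± 0.10, p = 0.312) and Mrps11 (0.11 ± 0.11, p = 0.313) came next in DESeq2's ranking in the authors' deposited table, both members of the conserved head and platform of the subunit. Mrps31, a mitochondria-specific protein of the small subunit, was the gene farthest below 0 in brown fat, at -0.08 ± 0.10 (SE, p = 0.390, DESeq2, the authors' deposited table).

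Proteins with and without a bacterial counterpart both leaned above 0. In the large subunit of brown fat 23 of 30 genes with such a counterpart and 15 of 18 without one lay above 0. In the small subunit 14 of 17 and 9 of 12 did. These classes count Mrps18a among the 12 without a counterpart, although it is related to a bacterial protein, as described below. The difference between these shares was not tested. Values of other genes are given beside this lean. All 9 brown adipocyte markers lay above 0 in brown fat, with a median of 0.096, and 2 of them had an unadjusted p under 0.05: Dio2 (0.48 ± 0.12) and Ppara (0.41 ± 0.12) in the authors' deposited table by DESeq2's test. The other brown adipocyte markers and the 8 myofibre markers, whose median was -0.0089 with each within 1 standard error of 0, did not pass at that level. Standard errors of the 8 myofibre markers ran from 0.053 to 0.076, below the median of 0.103 over all genes in brown fat. The deposited fold changes behave as shrunken towards 0, so these near-0 values do not show that muscle RNA was equal between genotypes. Short transcripts also leaned above 0. With all genes split into 10 bins by exonic length, 55.6% and 58.3% were above 0 in the 2 shortest bins and 42.5% in the longest. Those 2 shortest bins hold 48 of the 77 genes. With the median of genes of like exonic length removed from each fold change, 36 of 48 large and 23 of 29 small subunit genes were still above 0, with medians of 0.025 and 0.031. With that of genes of like mean count removed, 34 of 48 and 23 of 29 were, with medians of 0.024 and 0.026. The part of the brown adipocyte genes was not tested. In whole tissue, more cells of a type and more RNA per cell cannot be told apart.

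**Figure D1:**
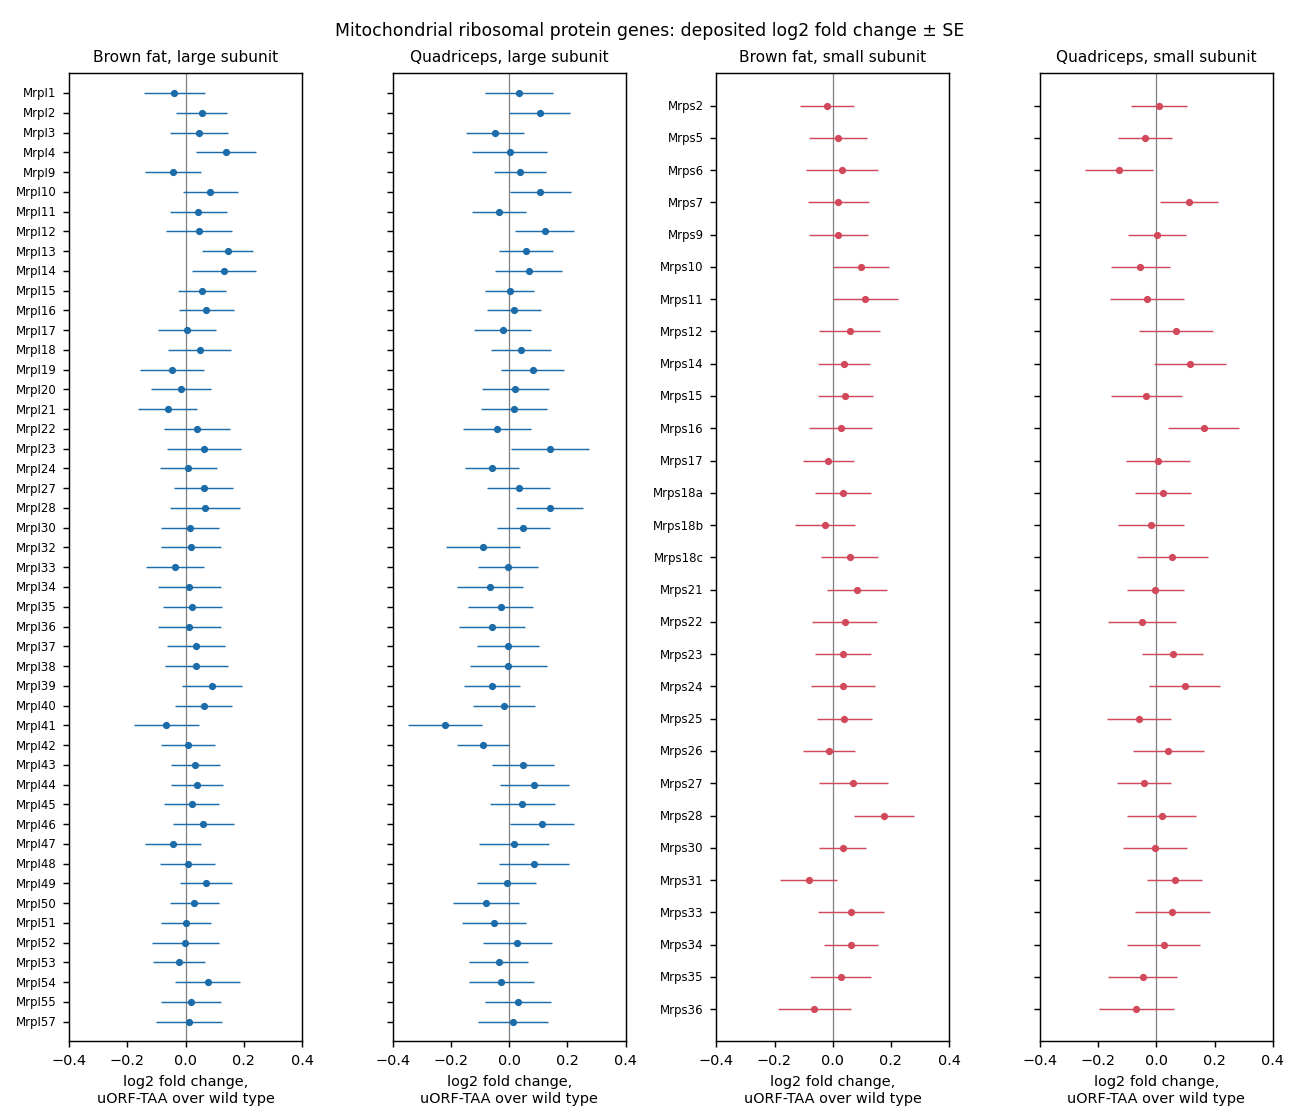
Log2 fold change, uORF-TAA over wild type, of each of the 77 genes of the mitochondrial ribosome, with bars of ± 1 standard error of the authors' deposited tables. From left to right the panels show the large subunit in brown fat and in quadriceps, then the small subunit in brown fat and in quadriceps; points in brown fat sit mostly just right of 0 (38 of 48 and 23 of 29), and those in quadriceps spread on both sides (27 of 48 and 16 of 29 above 0).

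The same comparison in quadriceps, uORF-TAA against wild type, likewise gave no call. The adjusted p was under 0.05 for 0 of 77 genes and for 0 of 17521 genes overall (0%), and the unadjusted p for 0 of 77 and for 350 of 17521 (2.00%), by DESeq2's Wald test. Above 0 lay 27 of 48 large subunit genes (56.2%) and 16 of 29 small subunit genes, where 50.9% of all genes whose mean was 50 or more did. The medians were 0.014 and 0.0061, next to 0.0021 for those genes. Large subunit genes with a bacterial counterpart were above 0 in 20 of 30 cases and those without one in 7 of 18, and the difference was not tested.

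Mrpl41, a mitochondria-specific protein of the large subunit, had the smallest p of all 77 genes across both tissues. The quadriceps log2 fold change was -0.22 ± 0.13 (SE, p = 0.0822, DESeq2's Wald test, the authors' deposited table), with a 95% interval of -0.47 to 0.03; in brown fat it was -0.07 ± 0.11 (SE, p = 0.554). The mural cell markers of quadriceps, from vessel walls, had a median of -0.29, with 3 of 5 lower at an unadjusted p under 0.05 by DESeq2. Those 3 were Acta2, Myh11 and Tagln, while Rgs5 (0.0060 ± 0.11) and Pdgfrb (-0.08 ± 0.13) lay within 1 standard error of 0. The 5 Schwann cell markers had a median of -0.20. Whether Mrpl41 moved with any of these markers was not tested. On the high side in the authors' deposited quadriceps table stood Mrps16, a conserved protein of the small subunit (0.16 ± 0.12, p = 0.183 by DESeq2), and Mrpl28, conserved in the large subunit (0.14 ± 0.12, p = 0.231). Mrpl12, the stalk protein that also binds the mitochondrial RNA polymerase, stood at 0.12 ± 0.10 (SE, p = 0.225, DESeq2, the authors' deposited table). Mrpl23 (0.14 ± 0.13, p = 0.294), Mrps7 (0.11 ± 0.10, p = 0.267), Mrps14 (0.12 ± 0.12, p = 0.346) and, below 0, Mrps6 (-0.13 ± 0.12, p = 0.278) completed the genes of smallest p by DESeq2 in the authors' deposited quadriceps table. All of these values lay within 2 standard errors of 0.

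None of the stalk proteins, which stand where translation factors dock, passed the test. Mrpl10, which forms the base of the stalk, was at 0.09 ± 0.09 (SE, p = 0.363, DESeq2) in brown fat and 0.11 ± 0.10 (SE, p = 0.307) in quadriceps in the authors' deposited tables. Mrpl11, its neighbour at the stalk base, was at 0.04 ± 0.10 (SE, p = 0.652, DESeq2) in brown fat and -0.04 ± 0.09 (SE, p = 0.698) in quadriceps in the authors' deposited tables, and Mrpl12 in brown fat at 0.05 ± 0.11 (SE, p = 0.678). Mrps18a, Mrps18b and Mrps18c are counterparts of the same bacterial protein, S18, and the product of Mrps18a sits in the large subunit despite its name. Their fold changes in the authors' deposited tables were 0.03, -0.03 and 0.06 in brown fat and 0.02, -0.02 and 0.05 in quadriceps, each within 1 standard error of 0. The product of Mrps30 also belongs to the large subunit, and that of Mrps36 is now known as a part of the 2-oxoglutarate dehydrogenase complex; both were counted by their symbols. Mrps36 stood at -0.06 ± 0.12 (SE, p = 0.615, DESeq2) in brown fat and -0.07 ± 0.13 (SE, p = 0.588) in quadriceps in the authors' deposited tables.

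How large a change these data allow can be read from the errors. Standard errors ran from 0.080 to 0.127 in brown fat and from 0.084 to 0.135 in quadriceps. The 95% interval of the fold change stayed within 1.4-fold either way, a limit chosen after the values were seen, for 77 of 77 genes in both tissues. The outermost bounds were -0.31 and 0.38 in brown fat and -0.47 and 0.41 in quadriceps. The deposited fold changes behave as shrunken towards 0, and undoing this approximately left 75 genes within 1.4-fold in brown fat and 71 in quadriceps, and 77 and 75 within 1.5-fold. The median absolute Wald statistic was 0.415 in brown fat, against 0.500 for all genes whose mean was 50 or more, and 0.418 in quadriceps, against 0.517.

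Across both tissues 32 of 77 genes (41.6%) were above 0 in each, 5 were below in each, 29 were above in brown fat only and 11 in quadriceps only. Of the 9282 genes whose mean was 50 or more in each table, 29.5% were above 0 in both. Over the 77 genes the fold changes of the tissues had a Pearson r of 0.17 and a Spearman rho of 0.15, as a description across genes, which are not independent and share the same libraries within a tissue; over the 9282 genes these were 0.24 and 0.21. All of these rest on the assumed sign: if the brown fat sign were the opposite, 11 of 77 genes would lie above 0 in both and 29 below in both, 20.4% of the 9282 genes would lie above 0 in both, and the Pearson r would be -0.17 for the 77 and -0.24 for the 9282. No agreement between the tissues is therefore read from them. A direct test of each gene's difference, brown fat minus quadriceps, called 0 of 77 and 0 of 16844 genes at an adjusted p under 0.05 (0%); at an unadjusted p under 0.05 it found 0 of 77, against 195 of 16844 (1.16%). It is a normal test on the deposited DESeq2 estimates and treats the tissues as independent. The smallest p belonged to Mrps10, with a difference of 0.15 ± 0.14 (SE, p = 0.273), Mrps31 at -0.15 ± 0.13 (SE, p = 0.277) and Mrpl39, a large subunit protein related to aminoacyl-tRNA synthetases, at 0.15 ± 0.14 (SE, p = 0.292), all from the DESeq2 estimates of the authors' deposited tables. This order also rests on the assumed sign: if the brown fat sign were the opposite Mrpl41 would lead, at 0.29 ± 0.17 (SE, p = 0.0893, the authors' DESeq2 estimates), and again 0 of 77 genes would pass.

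Other parts of the mitochondrial translation machinery, with complex I and the cytosolic ribosome, were set beside these genes to see whether any passed where they did not. None did: no gene of 7 lists had an adjusted p under 0.05 by DESeq2 in either tissue, and the only unadjusted p under 0.05 was that of Nars2, the asparagine tRNA synthetase, at 0.27 ± 0.12 (SE, p = 0.0298, DESeq2) in the authors' deposited quadriceps table. The 19 mitochondrial tRNA synthetases had 13 genes above 0 in brown fat and 14 in quadriceps, with medians of 0.055 and 0.076, and Mars2 and Rars2 (0.23 ± 0.12 and 0.19 ± 0.11, p = 0.0589 and 0.0748 by DESeq2) followed Nars2 in the authors' deposited quadriceps table. Translation factors and mRNA handling proteins, 16 in number, had 11 above 0 in brown fat and 12 in quadriceps, with medians of 0.017 and 0.018. The elongation factor Tsfm, which reloads Tufm, stood highest among them in quadriceps at 0.24 ± 0.13 (SE, p = 0.0667, DESeq2, the authors' deposited table). Of 25 assembly and rRNA modification factors, 15 lay above 0 in brown fat and 13 in quadriceps; the helicase Ddx28, which acts in large subunit assembly, was at -0.16 ± 0.09 (SE, p = 0.0810) and the rRNA methyltransferase Nsun4 at 0.16 ± 0.10 (SE, p = 0.118, DESeq2) in the authors' deposited brown fat table. The 6 mitoribosomal proteins with other symbols, among them Dap3 and Aurkaip1, had 5 above 0 in brown fat and 6 in quadriceps. Mitochondrial transcription proteins had 4 of 7 above 0 in brown fat and 5 of 7 in quadriceps, where Tfam, which packages mitochondrial DNA, was at 0.16 ± 0.12 (SE, p = 0.173, DESeq2, the authors' deposited table).

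Complex I, which needs subunits made by these ribosomes, also lay mostly above 0 in brown fat, and the proteins of the cytosolic ribosome did not. Of 35 genes taken as nuclear complex I subunits by their Nduf symbols alone, 31 were above 0 in brown fat (median 0.049) and 20 in quadriceps (median 0.012). Of 79 cytosolic ribosomal protein genes 30 were above 0 in brown fat (median -0.0082) and 33 in quadriceps (median -0.010). These lists are given by counts and medians alone, and the difference between them was not tested.

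**Figure D2:**
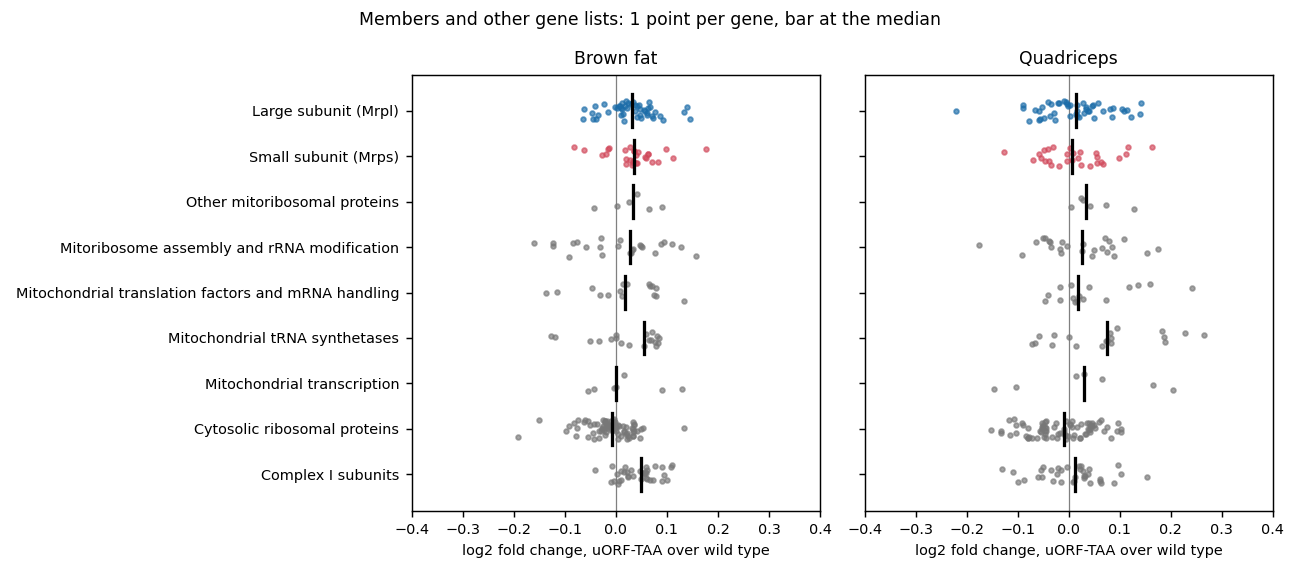
Log2 fold change, uORF-TAA over wild type, in brown fat (left) and quadriceps (right) for the genes of the large and small subunit and of 7 other lists, with 1 point per gene and a bar at the median. In brown fat the medians of both subunits (0.032 and 0.035) and of complex I (0.049) lie above 0 and that of the cytosolic ribosomal proteins (-0.0082) below it.

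Level ratios between the tissues were much larger than the fold changes between genotypes. With both genotypes pooled, large subunit genes summed to 3328 CPM in brown fat and 1318 in quadriceps, and small subunit genes to 1661 and 569. In CPM, 77 of 77 genes were higher in brown fat, as were 6924 of the 9282 genes. More than 2-fold higher were 59 of the 77 (34 large and 25 small subunit), where 47.1% of the 9282 genes were. The median log2 ratio of brown fat over quadriceps was 1.33 for the large and 1.55 for the small subunit. Most genes were higher in brown fat on this scale, on which the 8 myofibre markers alone held 176597 CPM of quadriceps, and the median gene had a log2 ratio of 0.91. Relative to that gene the medians were 0.42 and 0.64, 65 of 77 genes were higher in brown fat, and 16 (10 large and 6 small subunit) exceeded 2-fold, against 21.7% of all genes. The tables were normalized separately and give no spread between libraries, so the ratios carry no test. By the same relative measure complex I subunits had a median of 1.07 and cytosolic ribosomal proteins of 0.43.

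**Figure D3:**
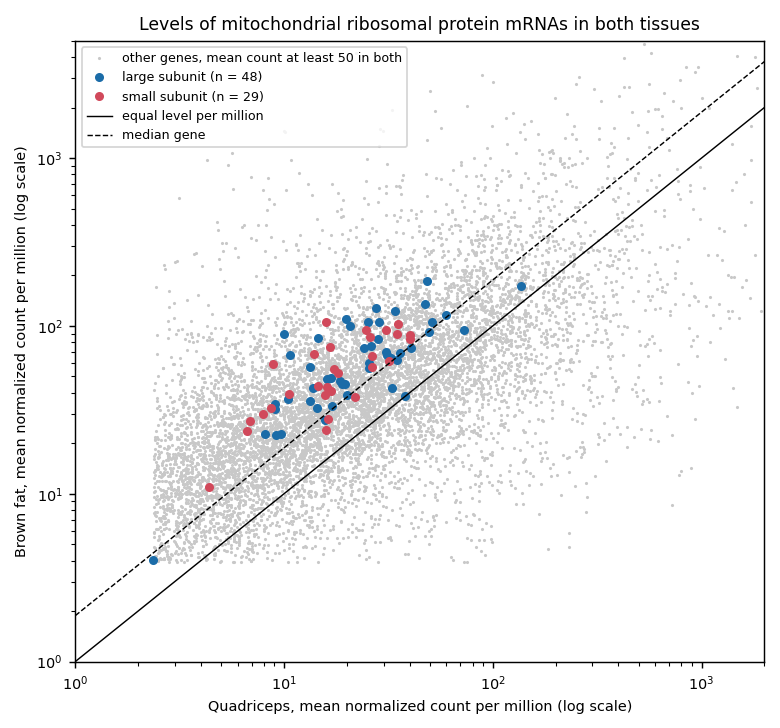
Mean normalized count in CPM (counts per 1000000) in brown fat (vertical, log scale) against quadriceps (horizontal, log scale) for the 48 large and 29 small subunit genes and, in grey, other genes whose mean was 50 or more in each table; genes beyond the ends of the axes are not drawn. All 77 lie above the line of equal level, 65 of them above the dashed line of the median gene.

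Some genes had almost the same CPM in both tissues and others differed by several fold. Mrpl34, a conserved large subunit protein, had the highest ratio, with 89.2 CPM in brown fat and 9.98 in quadriceps, a log2 ratio of 3.16. Mrpl20 (67.4 and 10.6), Mrpl4 (85.2 and 14.5) and the stalk protein Mrpl10 (110.0 and 19.9) followed, with log2 ratios of 2.66, 2.55 and 2.47. In the small subunit Mrps16 had 59.3 CPM in brown fat and 8.90 in quadriceps (log2 ratio 2.74), the mitochondria-specific Mrps35 104.8 and 15.8 (2.73), Mrps24, the counterpart of bacterial S3, 67.8 and 13.9 (2.29), and the mitochondria-specific Mrps34 74.6 and 16.6 (2.17). These genes stood above the median gene's ratio of 0.91 by more than 1 log2 unit.

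At the other end Mrpl1, which forms a mobile stalk beside the exit site for tRNA, was nearly equal at 38.4 CPM in brown fat and 38.0 in quadriceps (log2 ratio 0.016). Mrpl42 (173.7 and 136.8), Mrpl50 (94.4 and 73.1) and Mrpl32 (42.6 and 33.0) had ratios of 0.34, 0.37 and 0.37, below that of the median gene. In the small subunit the lowest were Mrps22 at 23.9 CPM in brown fat and 15.9 in quadriceps (log2 ratio 0.59), Mrps28 at 27.9 and 16.3 (0.78), the pentatricopeptide protein Mrps27 at 38.0 and 21.8 (0.80), and Mrps21 at 62.2 and 31.8 (0.97). The other stalk proteins lay between, Mrpl12 at 122.5 and 34.1 (1.85) and Mrpl11 at 74.0 and 24.3 (1.61), as did Mrps18a (1.62), Mrps18b (1.30) and Mrps18c (1.61). The log2 ratios of the large subunit thus ran from 0.016 to 3.16.

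Levels of different genes were compared per kilobase of exon, with lengths from GENCODE M21, whose build differs from that of the files. Mrpl42, a mitochondria-specific protein of the large subunit, was highest in both tissues, at 3280 counts per kilobase in brown fat and 4239 in quadriceps. Mrpl30 followed in brown fat (2432) ahead of Mrpl34 (1885), and in quadriceps Mrpl33 (1123) ahead of Mrpl30 (1041). Mrps21 led the small subunit at 1620 counts per kilobase in brown fat and 1360 in quadriceps, with Mrps18a (1175 and 626) and Mrps15 (1149 and 897) next. Mrpl23 was lowest in the large subunit, at 53.4 counts per kilobase in brown fat and 51.5 in quadriceps, below Mrpl19 (71.0 and 65.8) and Mrpl48 (96.9 and 59.8). In the small subunit Mrps25 (91.3 and 55.9) and Mrps33 (91.6 and 60.0) were low in both tissues, with Mrps17 (112) in brown fat and Mrps26 (51.8) in quadriceps beside them. Without values per library, which neighbours in this order differ could not be tested.

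The order was much alike in both tissues, with a Spearman rho of 0.85 over the 48 large subunit genes and 0.88 over the 29 small subunit genes, both of which use the same lengths. It depends on which length is used. Per kilobase of coding sequence Mrpl42 and Mrps21 stayed highest and Mrpl23 lowest of the large subunit in both tissues. Mrps17 moved from place 27 to place 5 of its subunit in brown fat and from 26 to 5 in quadriceps. The lowest small subunit gene became Mrps22 instead of Mrps25 in brown fat, and Mrps11 instead of Mrps26 in quadriceps. Mrps25 has 6073 exonic and 513 coding bases. The SD of the log2 level among large subunit genes was 1.30 in brown fat and 1.21 in quadriceps per exonic kilobase, and 1.05 and 1.07 per coding kilobase.

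**Figure D4:**
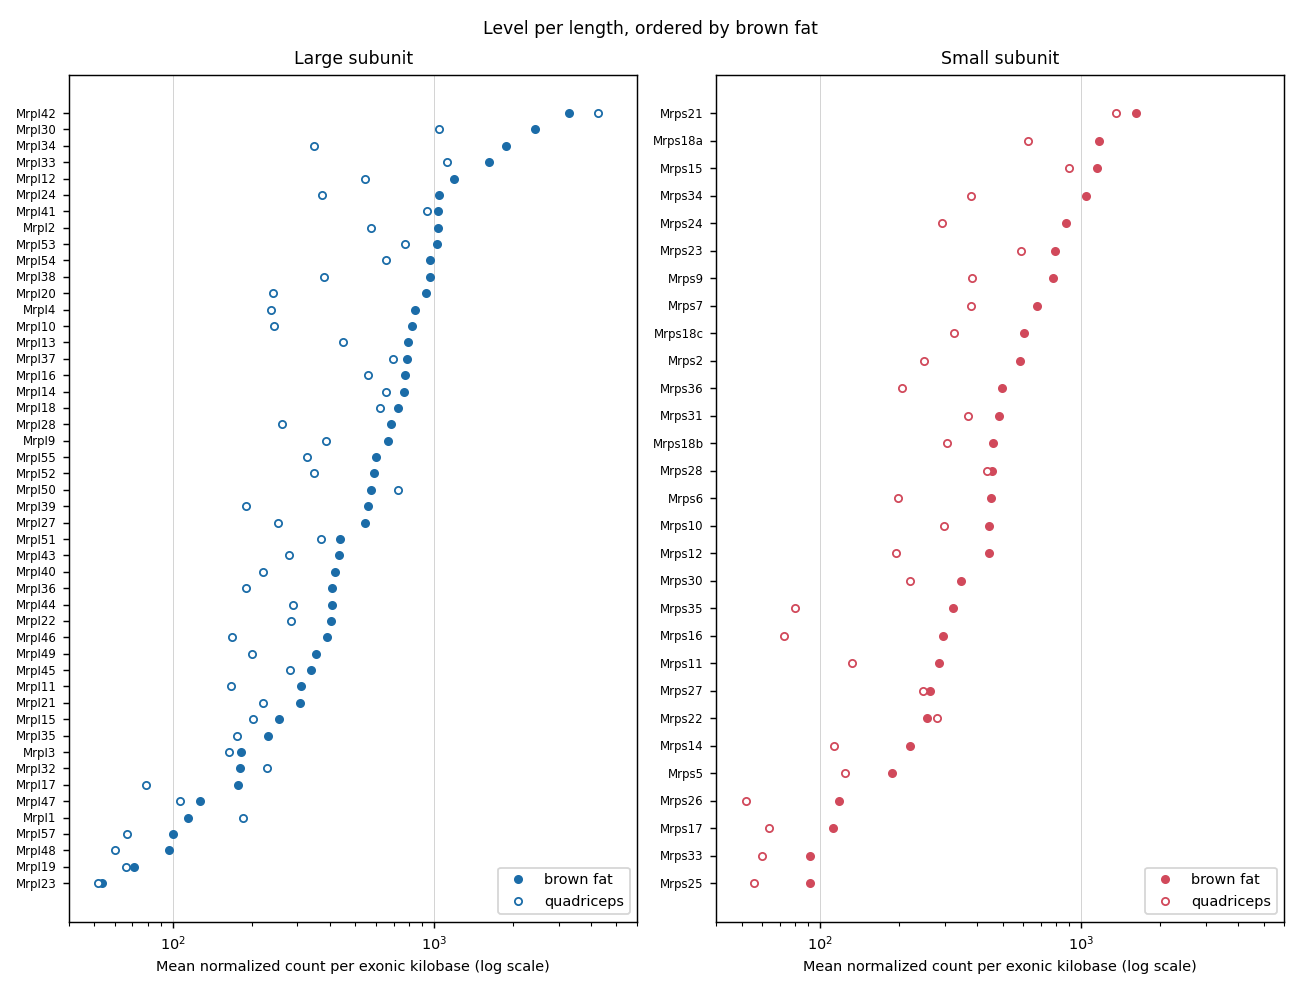
Mean normalized count per exonic kilobase (log scale) of each large subunit (left) and small subunit (right) gene, ordered by brown fat, with filled points for brown fat and open points for quadriceps. Mrpl42 and Mrps21 are at the top in both tissues, and the open points lie left of the filled ones for most genes; these counts are not scaled between tables.

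The genes are short and often share their start region with another gene. Their median exonic length was 1363 bases, against 3154.5 for all protein-coding genes listed. A protein-coding gene on the opposite strand started within 1000 bases for 33 of 77 (42.9%), against 2380 of 21924 protein-coding genes (10.9%). Distances here are between GENCODE M21 gene starts, and RefSeq starts can differ. Mrpl46, which has a Nudix fold, and Mrps11 share such a region, so 1 start region faces a large and a small subunit gene. Their starts are 412 bases apart in GENCODE M21 and closer together in RefSeq. In brown fat Mrpl46 and Mrps11 stood at 0.06 ± 0.10 and 0.11 ± 0.11 and in quadriceps at 0.11 ± 0.11 and -0.03 ± 0.13 in the authors' deposited tables (SE). Mrps12, the decoding-site protein, starts 172 bases from Sars2, the mitochondrial serine tRNA synthetase, and Mrpl36 starts 29 bases from Ndufs6, a subunit of complex I. Mrpl32 starts 75 bases from the proteasome gene Psma2 and Mrpl49 59 bases from Fau, which encodes a cytosolic ribosomal protein. Of 31 such neighbours measured in both tables, 1 had an unadjusted p under 0.05 in brown fat, Pnpla7 beside Mrpl41, at -0.26 ± 0.12 (SE, p = 0.0291, DESeq2, the authors' deposited table), and 0 did in quadriceps. Over all genes the shares under 0.05 were 2.07% in brown fat and 2.00% in quadriceps, so 1 of 31 is not read as a result about the neighbours. Whether Pnpla7 and Mrpl41 moved together was not tested.

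Overlap can also move counts between genes. An exon of 25 of the 77 genes overlapped another annotated gene, on the opposite strand in 21 cases and on the same strand in 5 (1 gene had both), such as Mrps6 with Slc5a3. Mrpl10, Mrpl12, Mrpl13, Mrpl19, Mrpl48, Mrps7 and Mrps25 are among those with a partner on the opposite strand. The libraries kept strand, but whether the counting used it is not stated in these sources, so the levels of these genes are uncertain. RefSeq lists 6 pseudogenes of 4 of the genes, Mrpl23, Mrpl27, Mrpl48 and Mrps36, which could share reads with them and have no row in either table.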

How the data were processed

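Libraries of stranded mRNA, single-end 75 bp per the labels' protocols, came from 4 uORF-TAA and 4 wild-type samples of each tissue. The submitters' processing notes name STAR 2.5.1b, mm9, DESeq2 1.10.1 and DESeq without roles; the annotation and the read counter they do not name. The deposited tables, per the file headers, give for each gene a mean normalized count (a signal), a log2 fold change with its standard error, the Wald statistic (a score), a p-value and an adjusted p-value, all made by the authors. Recomputing the last 3 from the others returned them to rounding. The sign of the brown fat table, which names wild type first, was turned, an assumption. Shrinkage of the fold changes is inferred from standard errors near 0 in genes of low count.

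Computed here, with Python 3.11.15, pandas 2.3.3 and scipy 1.17.1, were counts, medians, normal 95% intervals, the test of the difference between tissues (Benjamini-Hochberg over all genes), levels in CPM (per 1000000 of the table's sum) and per length. The tissue test was run on simulated, unshrunken statistics with 200 genes strongly shifted, which checks the code only. How it behaves on the shrunken estimates of these data was not tested. Each p-value compares an estimate with its standard error, which rests on these samples alone. The labels name littermates but no pairs. The members and lists were chosen with earlier results of these data known. Members named are, per tissue and subunit, the 4 of smallest p; the 3 highest and lowest per length; the 4 highest and lowest tissue ratios; the 3 of smallest p for the difference; the stalk and Mrps18 genes; those with pseudogenes; and up to 3 of smallest p per other list. Others are named only where a structural feature is described or for their role.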

Additional observations from a re-analysis of the deposited data

How the results depend on the processing

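With the deposited Wald statistics rescaled to an empirical null, 2 genes in brown fat (Mrpl13, Mrps28) and 1 in quadriceps (Mrpl41) had an unadjusted p under 0.05, and 0 passed after adjustment (smallest adjusted p 0.825 and 0.991). The share of all genes under 0.05 after this rescaling is not given here. The counts of 2 and 1 therefore have no background beside them and are not read as an excess. The median log2 ratio of brown fat over quadriceps depended on scaling: relative to the median gene it was 0.42 for the large and 0.64 for the small subunit, and 0.77 and 1.00 in CPM computed without the 50 highest genes of each table. Per coding instead of exonic kilobase the SD of the log2 level in brown fat was 1.05 for the large and 0.82 for the small subunit, and in quadriceps 1.07 and 0.76. The other 35 planned comparisons kept their direction and side of the threshold, as did 48 values of named genes. So did 8 added after seeing the data (undone shrinkage, and removal of the median of genes of like exonic length). Several of the 35 could not have moved. A floor of 10 on the mean count kept every member (lowest means 49.8 in quadriceps and 51.6 in brown fat). This fixed their medians and unadjusted counts. No pseudogene had a row, so leaving out pseudogene symbols removed nothing. With smallest adjusted p-values of 0.9998 in quadriceps and 0.9999 in brown fat (DESeq2), thresholds of 0.1 and 0.01 could not change a call. Such settings do not show stability. Small quadriceps medians still moved: that of the small subunit was 0.00057 instead of 0.0061 with the exonic length median removed, and that of the large subunit 0.0087 instead of 0.014 with the median of genes of like mean count removed. Reading the brown fat table the other way gave 0 genes that differed between tissues (smallest p 0.0893, Mrpl41, by the normal test on DESeq2 estimates). No paired analysis was possible because the tables hold no values per library; for the same reason leaving out replicates was not run. Depth limits Mrpl23 most, with the lowest mean count in both tissues.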
